A study of Mus musculus with 6 samples.

Results

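The genes described here are 48 genes that license replication origins and run the replication fork, read in mouse double negative T (DNT) cells kept with or without IL-33. They were chosen by name for the protein each encodes, with no measured value in the rule. Earlier results of these data were known when the genes were chosen. By role they comprised the origin recognition complex (6 genes), the licensing factors with their inhibitor geminin (3), the MCM2-7 helicase (6), the factors that activate it (8), DNA polymerase alpha-primase (4), DNA polymerases delta and epsilon (5), the sliding clamp and its loader (6), RPA (3), Okazaki fragment maturation (2), fork protection (3) and the histone chaperone CAF-1 (2). All 48 were among the 26128 genes of the count table, and all 48 were among the 14671 genes with enough counts to be tested.

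A replication origin is prepared before S phase, when the origin recognition complex (ORC) binds DNA and, with CDC6 and CDT1, loads the ring-shaped MCM2-7 helicase in an inactive form. Geminin binds CDT1 and blocks further loading once copying has begun, so that an origin fires no more than once in a cycle. The CDC7-DBF4 kinase, CDC45 and the GINS complex then turn the loaded ring into a working helicase, behind which the polymerases, the PCNA clamp, the RPA complex, FEN1 and DNA ligase I copy the strands. Many of these genes carry E2F sites and are transcribed in a wave around the start of S phase, and T cells switch them on after stimulation through the antigen receptor and CD28.

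DNT cells are CD3+ T cells without CD4 or CD8 that can dampen other immune cells. Here they were made in culture from CD4+ T cells of wild-type adult C57BL/6 mice, with mature dendritic cells of DBA/2 mice and IL-2, and were sorted as CD3+NK1.1-CD4-CD8-. Both groups then received anti-CD3/CD28 beads for 48 h, alone (control, 3 libraries) or with 50 ng/ml IL-33 (3 libraries), IL-33 being a cytokine of the IL-1 family. The labels do not say whether the 3 libraries of a group came from separate mice or cultures, so the p-values measure only the spread between these libraries.

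The libraries held 20256342 to 22336050 counts. At an adjusted p below 0.05 (edgeR), 13.9% of all genes tested were lower with IL-33 and 13.6% higher. These shares stand beside every marker list of this paragraph. Of 10 T cell genes, 4 were lower (40%) and 2 higher (20%). Their summed level was 2440 to 2589 CPM (counts scaled to library size with TMM factors) in the control libraries and 2507 to 2576 CPM in the IL-33 libraries. Cd4 had 5 to 22 counts per library, whereas Cd8a, which encodes the CD8 alpha chain, stood at 535 to 561 CPM in the control and 393 to 410.4 CPM in the IL-33 libraries, although the cells were sorted as CD8-. Cd8b1 rose from 9.68 to 16.3 CPM, and Klrb1c, which encodes NK1.1, fell from 33.5 to 25.6 CPM. Markers of other cells gave sums of 104 to 107 CPM against 81.6 to 88.8 CPM for dendritic and myeloid cells (15 of 17 genes listed, 8 tested, 2 lower and 2 higher), 405 to 408 against 373 to 393 CPM for NK cells (5 listed, 2 tested, 1 lower), 5.02 to 5.75 against 5.44 to 6.57 CPM for B cells (4 of 6 listed, 2 tested, neither called) and 14.9 to 19.9 against 10.2 to 13.6 CPM for mast cells and basophils (5 of 6 listed, 2 tested, 1 lower). Within these lists, Flt3, Siglech, Lyz2, Fcgr1, Ebf1, Ncr1 and Tpsb2 had 0 to 8 counts in every library, but other members were clearly present. Itgax had 1133 to 1185 counts in the control and 548 to 582 in the IL-33 libraries (log2 fold change -1.07). H2-Ab1 had 483 to 677 counts per library and was higher (0.29), as was Itgam (53 to 120 counts, 0.88). In the same list Cd74 had 73 to 130 counts and was lower (-0.58), and H2-Aa had 2 to 10 counts and was not tested. Xcr1 had 223 to 282 counts and did not pass, and Cpa3 had 134 to 268 and was lower (-0.62). Almost all of the NK sum came from Eomes. The part of these cells in the results was not tested.

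The start regions of the genes that changed most are shown first, because E2F words near the start are what this family of genes is known to share. For each, 150 bases before to 50 bases after the RefSeq start (GRCm38.p6) are given 5′ to 3′ on the gene's own strand, with E2F words in capitals. The E2F words searched on either strand were TTCCCGC together with TTCGCGC and, with other cores, TTGGCGC as well as TTGCCGC. The first 6 belong to genes that fell by the larger margin described below (Pole and Gins1 have no entry in the table used). Orc4 and Rfc1 are shown for contrast, as genes whose difference did not pass the test. Orc4 has 3 start windows in the table and Fen1 has 2; the first of each is printed, and the others hold no E2F word.
Cdc6 (chr11:98908001-98908200, plus strand): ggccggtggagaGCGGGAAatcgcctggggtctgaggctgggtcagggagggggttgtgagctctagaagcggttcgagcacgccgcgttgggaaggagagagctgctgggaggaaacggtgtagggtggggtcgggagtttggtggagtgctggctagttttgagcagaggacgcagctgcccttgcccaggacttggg
Cdt1 (chr8:122567865-122568064, plus strand): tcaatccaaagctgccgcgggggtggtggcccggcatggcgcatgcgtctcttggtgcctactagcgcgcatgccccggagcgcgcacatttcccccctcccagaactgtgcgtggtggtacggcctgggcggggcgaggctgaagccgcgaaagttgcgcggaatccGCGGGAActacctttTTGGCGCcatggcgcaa
Mcm2 (chr6:88898731-88898930, minus strand): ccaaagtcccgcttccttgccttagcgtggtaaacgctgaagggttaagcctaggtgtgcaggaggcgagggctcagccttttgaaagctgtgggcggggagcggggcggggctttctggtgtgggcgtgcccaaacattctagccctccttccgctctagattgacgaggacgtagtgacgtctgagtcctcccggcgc
Mcm10 (chr2:5012742-5012941, minus strand): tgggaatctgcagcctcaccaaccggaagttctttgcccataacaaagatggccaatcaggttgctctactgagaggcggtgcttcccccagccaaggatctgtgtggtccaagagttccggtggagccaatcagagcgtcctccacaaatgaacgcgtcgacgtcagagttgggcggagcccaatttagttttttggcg
Fen1 (chr19:10203872-10204071, minus strand): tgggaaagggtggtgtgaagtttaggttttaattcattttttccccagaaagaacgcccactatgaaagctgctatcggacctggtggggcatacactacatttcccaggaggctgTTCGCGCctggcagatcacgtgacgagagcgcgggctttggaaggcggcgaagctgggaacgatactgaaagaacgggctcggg
Clspn (chr4:126556830-126557029, plus strand): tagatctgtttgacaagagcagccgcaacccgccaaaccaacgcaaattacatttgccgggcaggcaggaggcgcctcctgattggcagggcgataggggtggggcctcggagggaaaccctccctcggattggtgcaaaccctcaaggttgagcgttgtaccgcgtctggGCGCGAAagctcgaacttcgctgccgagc
Orc4 (chr2:48949218-48949417, minus strand): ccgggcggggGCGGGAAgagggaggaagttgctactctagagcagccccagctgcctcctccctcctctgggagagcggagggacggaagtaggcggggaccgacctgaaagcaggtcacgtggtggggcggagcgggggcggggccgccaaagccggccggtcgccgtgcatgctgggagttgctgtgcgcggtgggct
Rfc1 (chr5:65335590-65335789, minus strand): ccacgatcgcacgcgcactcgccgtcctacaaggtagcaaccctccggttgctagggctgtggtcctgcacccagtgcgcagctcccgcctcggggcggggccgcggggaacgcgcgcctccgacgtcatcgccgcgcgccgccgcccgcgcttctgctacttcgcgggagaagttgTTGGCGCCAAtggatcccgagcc
Cdc6, Cdt1, Fen1 and Clspn hold an E2F word in this stretch, and so do Orc4 and Rfc1, which did not pass the test. Mcm2 and Mcm10 hold none. Orc2, Orc5 and Pold2, which also did not pass and are not printed, hold none in their start windows. The printed genes are thus examples, and the shares over all genes with a window are given below.

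With IL-33, most of the 48 genes were lower. At an adjusted p below 0.05 (edgeR quasi-likelihood test, Benjamini-Hochberg over all genes tested), 37 of the 48 were lower, where 13.9% of all genes tested were lower. Only Orc3 was higher, where 13.6% of all genes were, and 10 genes did not pass, so 38 were called in either direction, against 27.5% of all genes. With the study's 1.5-fold threshold added, 8 genes were lower, where 2.39% of all genes were, and none was higher, where 2.47% were (0 also at an unadjusted p under 0.05 in edgeR, and 0 with DESeq2). These 8 were Cdc6, Cdt1, Mcm2, Mcm10, Gins1, Pole, Fen1 and Clspn. Without the first control library 5 remained past both thresholds, since Mcm10, Gins1 and Pole then had log2 fold changes of -0.55, -0.57 and -0.56, short of the fold threshold.

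The median log2 fold change of the 48 genes was -0.40, against -0.001 over all genes tested, so the falls were broad and of moderate size. The 3 IL-33 libraries lay below the 3 control libraries for 38 of the 48 genes, where 19.5% of all genes showed that separation, and above them for Orc3 and Orc5, where 19.4% did. Summed over all 48, the control libraries held 3497 to 3698 CPM and the IL-33 libraries 2797 to 2848 CPM, so that the group means were 3603 ± 101 and 2818 ± 26.9 CPM (SD, n = 3 each) and the IL-33 mean was 78.2% of the control mean. In these bulk libraries, fewer cells passing through S phase and less RNA of these genes in each cell cannot be told apart.

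**Figure D1:**
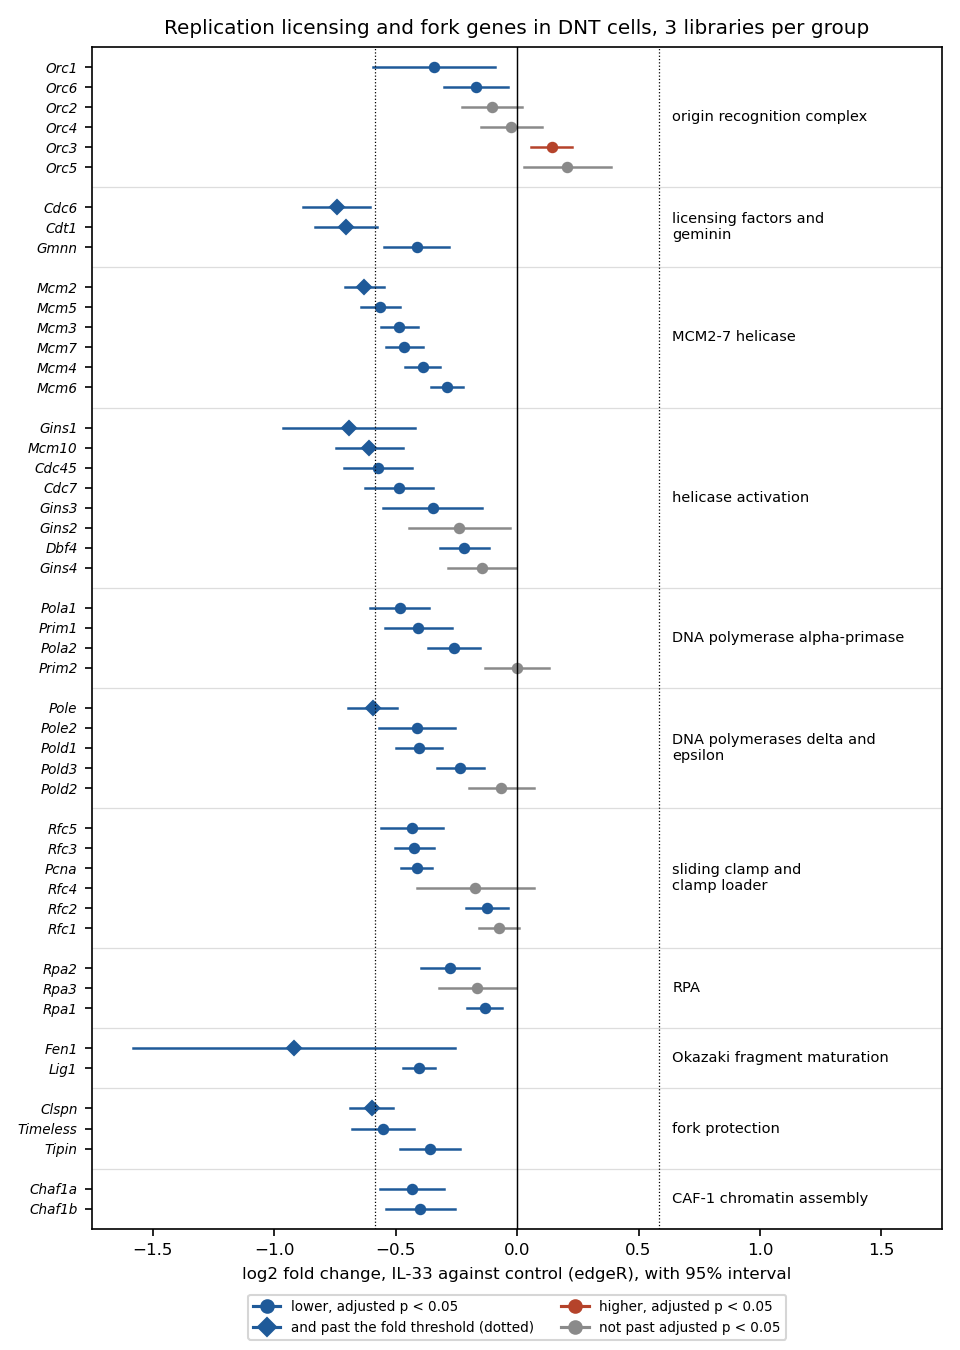
Log2 fold change of each of the 48 genes (IL-33 against control, horizontal axis) with its 95% interval, grouped by role; dotted lines mark the 1.5-fold threshold. The points of 46 genes lie left of 0, and the ORC group alone has called genes on both sides.

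**Figure D2:**
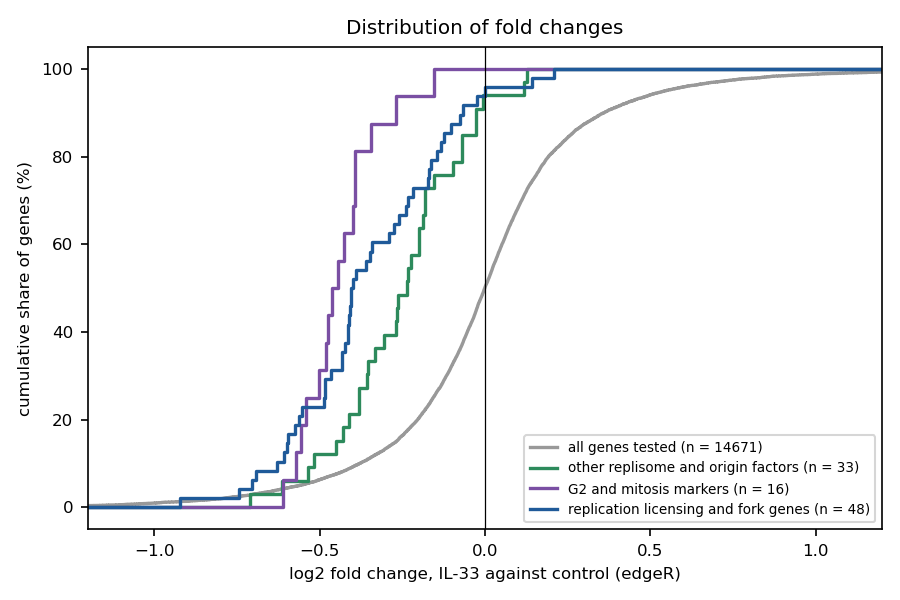
Cumulative share of genes (%) against log2 fold change for the 48 replication genes, 33 further replication factors, 16 G2 and mitosis markers and all 14671 genes tested. The curve of the 48 genes crosses the halfway mark at -0.40 and that of all genes at -0.001.

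ORC had the smallest median log2 fold change of the groups, at -0.06: 2 of its 6 genes were lower, 1 was higher and 3 did not pass. Its summed level was 217.5 to 230.3 CPM in the control and 224.6 to 228.7 CPM in the IL-33 libraries, which overlapped, and the IL-33 mean was 100.4% of the control mean. Orc1, the ATP-binding subunit that is made and destroyed within each cycle, stood at 10.5, 11.0 and 9.49 CPM in the control libraries and at 9.07, 7.15 and 8.19 CPM with IL-33. All 3 IL-33 values lay below the controls, and the log2 fold change was -0.34 ± 0.127 (SE, adjusted p = 0.033). Orc3, a core subunit, went the other way, from 79.3, 80.0 and 76.5 CPM to 87.9, 85.3 and 87.2 CPM, again without overlap (log2 fold change 0.14 ± 0.0426, adjusted p = 0.0062). Orc6 fell by 0.17 on the log2 scale (adjusted p = 0.044). The remaining subunits did not pass: Orc5 had a log2 fold change of 0.21 with a 95% interval of 0.03 to 0.39 (adjusted p = 0.075), Orc2 of -0.10 (-0.23 to 0.02) and Orc4 of -0.02 (-0.15 to 0.10). Orc1 passed in 5 and Orc6 in 4 of 11 alternative analyses, and Orc3 no longer passed without the third control library (adjusted p = 0.0558). For Orc2, 29.8% of exon bases lie opposite exons of Nif3l1 (11.2 CPM in the control). The share was 10.8% for Orc1 opposite Gm12743 (1.30 CPM) and 6.93% for Orc6 opposite Vps35 (162 CPM).

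The licensing factors fell the furthest of the groups by summed level, to 65.1% of the control mean, from 122 to 135 CPM down to 80.6 to 84.9 CPM. Cdc6, the ATPase that recruits the helicase to ORC, stood at 43.3, 41.6 and 36.7 CPM in the control and at 25.4, 23.8 and 23.4 CPM in the IL-33 libraries. The ranges did not meet, and Cdc6 fell by 40.3% (log2 fold change -0.74 ± 0.0701, adjusted p = 3.2e-16). Cdt1, which carries the helicase to the origin, gave 49.6, 46.6 and 44.5 CPM against 28.6, 26.9 and 30.7 CPM, likewise with a wide gap (-0.70 ± 0.0652, adjusted p = 1.2e-16). Gmnn, which encodes the CDT1 inhibitor geminin, ran from 36.1 to 41.6 CPM in the control and from 28.5 to 30.7 CPM with IL-33, and fell by 0.41 on the log2 scale (adjusted p = 2.7e-07). Counts of Cdc6 may include reads of the pseudogene Gm9430, which matched 1527 bases of it at 95.2% identity.

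All 6 helicase subunits, Mcm2 to Mcm7, were lower, and the groups did not overlap for any of them. Mcm2 fell the most: it stood at 157, 151 and 142 CPM in the control libraries and at 97.8, 97.6 and 95.4 CPM with IL-33. That is a fall by 35.3% with a spread between IL-33 libraries of 1.32 CPM (SD), and a log2 fold change of -0.63 ± 0.0399 (adjusted p = 2.6e-26). The subunits then followed in the order Mcm5 (-0.56), Mcm3 (-0.48), Mcm7 (-0.46), Mcm4 (-0.39) and Mcm6 (-0.29), all with standard errors of 0.0325 to 0.0403. Mcm6 is the most abundant of the ring per kb of exon and moved least: its control libraries held 259 to 269.5 CPM and its IL-33 libraries 217 to 218 CPM. For Mcm5 the ranges were 163 to 189.9 CPM and 119 to 123 CPM. The 95% interval of Mcm6 (-0.35 to -0.22) lay apart from those of Mcm2 (-0.71 to -0.55) and Mcm5 (-0.64 to -0.48). MCM2-7 act as a ring with each subunit present once. In the control libraries their level per kb of exon ran from 21.6 for Mcm2 to 57.0 CPM per kb for Mcm6. Exon length here is that of all annotated exons of a gene merged, so this range depends on annotation as well as on RNA. Mcm2 and Mcm3 both had 150 CPM in the control mean, over 6956 and 3752 exon bases. Mcm7 shares 7.25% of its exon bases with Ap4m1 on the other strand and has a pseudogene copy, Gm5487, at 97.7% identity over 2157 bases.

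**Figure D3:**
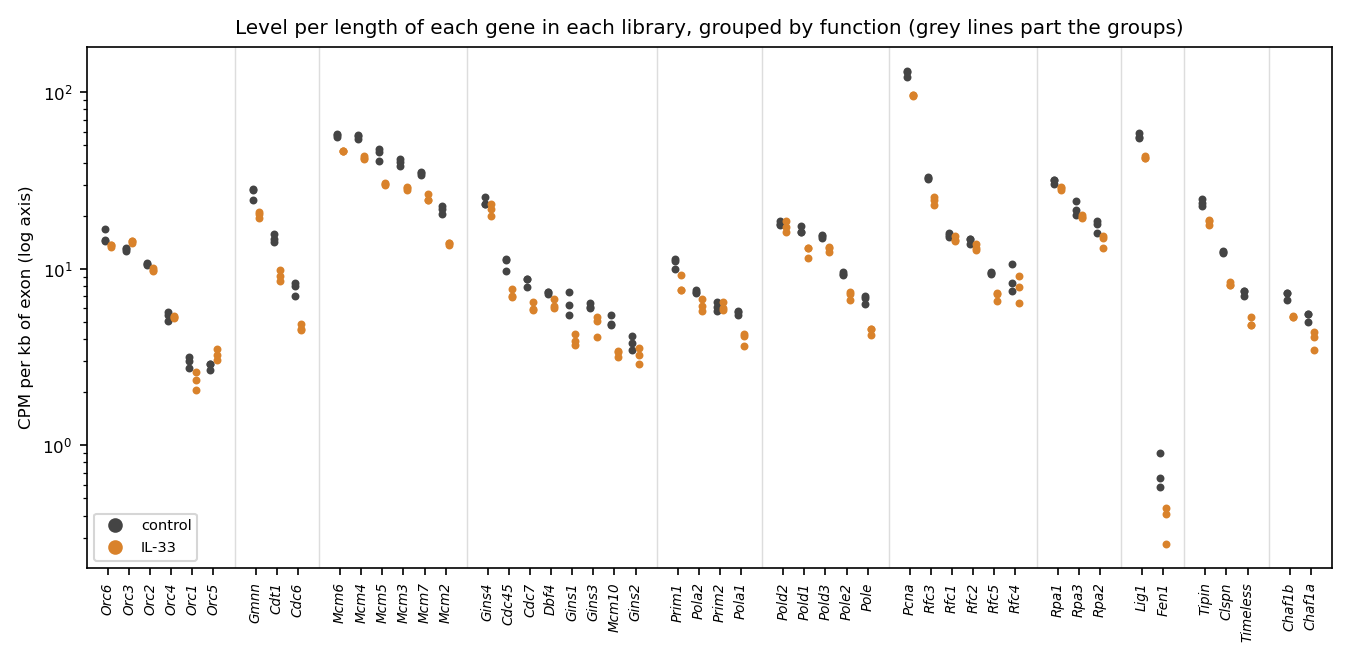
Level of each gene in each library in CPM per kb of merged annotated exons (log axis), 1 point per library, grouped by role. Pcna is the highest at 128 CPM per kb in the control mean and Fen1 the lowest at 0.713; in all 6 MCM subunits the IL-33 points lie below the control points.

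Of the 8 genes that activate the helicase, 6 were lower, and the summed level was 77.0% of the control mean. Gins1, a subunit of the GINS complex that joins MCM2-7 to CDC45, had 11.2, 8.27 and 9.45 CPM in the control and 5.58, 6.44 and 5.90 CPM in the IL-33 libraries. It fell by 38.1% without overlap between the groups (log2 fold change -0.69 ± 0.138, adjusted p = 2.5e-05). Mcm10, which helps the assembled helicase to open DNA, gave 42.0, 37.7 and 37.0 against 25.9, 26.2 and 24.4 CPM, again a clear gap (-0.61 ± 0.0694, adjusted p = 1.8e-12). Cdc45 (-0.57) and Cdc7 (-0.49), the helicase cofactor and the kinase that triggers firing, were lower by nearly as much, with 33.9 to 40.0 against 24.2 to 26.9 CPM for Cdc45 and 33.1 to 36.8 against 24.4 to 27.0 CPM for Cdc7. Both pairs of ranges lay apart, while Dbf4, the activating partner of CDC7, had a log2 fold change of -0.22.

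The 4 GINS genes, whose products form 1 complex, did not give like values. Gins3 had a log2 fold change of -0.35 (adjusted p = 0.0060, or 0.0974 without the second IL-33 library). Gins2 and Gins4 did not pass, at -0.24 (95% interval -0.45 to -0.03, adjusted p = 0.081) and -0.15 (-0.29 to -0.01, adjusted p = 0.12), and their groups overlapped. The Gins2 value is uncertain: 67.3% of its exon bases lie opposite exons of Gse1, which rose by 0.20 on the log2 scale, and no source used here says whether counting used strand.

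DNA polymerase alpha-primase makes the primers from which both strands start. The genes of 3 subunits were lower and Prim2 was not. Pola1, the catalytic subunit, had 49.9, 48.0 and 50.7 CPM in the control and 37.7, 36.6 and 32.1 CPM in the IL-33 libraries, well apart (log2 fold change -0.48 ± 0.0619, adjusted p = 1.5e-10). Prim1, the small primase subunit, and Pola2, the accessory subunit, had log2 fold changes of -0.41 and -0.26, with 38.6 to 44.0 against 29.3 to 35.9 CPM for Prim1. Prim2, the large primase subunit, was level, with 36.2, 38.3 and 34.1 CPM against 38.5, 35.4 and 34.6 CPM and a 95% interval of the log2 fold change of -0.13 to 0.13.

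Of the genes of the 2 main replicative polymerases, 4 of 5 were lower. Pole, the catalytic subunit of the leading-strand polymerase epsilon, had 78.7, 76.0 and 70.4 CPM in the control and 50.7, 47.2 and 51.0 CPM with IL-33. The values did not overlap and the log2 fold change was -0.59 ± 0.0508 (adjusted p = 1.9e-18), close to the fold threshold. Its partner Pole2 (-0.41), the catalytic subunit of polymerase delta Pold1 (-0.41) and the delta subunit Pold3 (-0.23) were lower by less, Pold1 with 78.8 to 84.6 against 55.9 to 63.6 CPM. Pold2, another delta subunit, had 34.0, 33.6 and 35.6 against 30.5, 35.4 and 32.7 CPM, with a log2 fold change of -0.07 (-0.20 to 0.07, adjusted p = 0.52).

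Pcna, the sliding clamp that holds the polymerases on DNA, had the highest level per kb of exon of the 48 genes, at 128 CPM per kb in the control and 96.3 with IL-33. It stood at 318, 312 and 294 CPM in the control and at 232, 231 and 230.2 CPM in the IL-33 libraries, a fall by 24.9% with no overlap (log2 fold change -0.41 ± 0.0323, adjusted p = 1.1e-20). A pseudogene, Pcna-ps2, matched 781 bases of it at 99.2% identity. The clamp loader RFC, which opens the PCNA ring, was uneven. Rfc5 had 44.7, 44.0 and 43.8 CPM against 33.9, 30.6 and 33.7 CPM (-0.43 ± 0.0635, adjusted p = 1.6e-08), and Rfc3 was close to it at -0.42, with 116 to 119 against 83.2 to 91.9 CPM. Rfc2 passed at -0.12 (adjusted p = 0.021), although its groups overlapped and it passed in 6 of 11 alternative analyses. Rfc1, the large subunit, and Rfc4 did not pass, with -0.08 (-0.16 to 0.01) and -0.17 (-0.41 to 0.07). The values of Rfc2, Rfc4 and Rfc5 are uncertain. Of the Rfc2 exon bases, 15.1% lie opposite Lat2 (101 CPM in the control, log2 fold change 0.12). For Rfc4, 12.7% lie opposite the more abundant Eif4a2 (303 CPM, log2 fold change 0.12), and both neighbours were higher with IL-33. For Rfc5, 10.7% lie opposite Wsb2 (43.2 CPM, log2 fold change -0.13), and a pseudogene, Gm12870, matched 1020 bases at 96.2% identity.

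RPA coats the single-stranded DNA that the helicase exposes and serves in repair as well as replication. Its 3 genes had the smallest summed difference after ORC, at 89.2% of the control mean. Rpa2 had 55.6, 53.9 and 47.9 CPM in the control and 46.1, 44.9 and 39.1 CPM with IL-33, with a narrow gap between the groups (log2 fold change -0.28 ± 0.0604, adjusted p = 0.00018). Rpa1 was lower by less (-0.13, adjusted p = 0.0024), and Rpa3 did not pass (-0.16, adjusted p = 0.12).

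Both genes of Okazaki fragment maturation were lower, but on very unequal evidence. Lig1, the ligase that seals the fragments, had 251, 238 and 236 CPM in the control and 185, 181 and 181 CPM in the IL-33 libraries, far apart (log2 fold change -0.40 ± 0.0340, adjusted p = 7.6e-19). Fen1, the flap nuclease, had only 30, 32 and 48 counts in the control and 23, 14 and 22 counts in the IL-33 libraries. Its log2 fold change was the largest of the 48 genes and the least precise, at -0.92 ± 0.334 (95% interval -1.58 to -0.26, adjusted p = 0.028). It did not pass with DESeq2 (adjusted p = 0.0897), without the third control library (0.189) or without the second IL-33 library (0.127). In addition, 78.8% of the Fen1 exon bases lie opposite the antisense gene Gm10143, which had 1.41 CPM in the control and 0.772 CPM with IL-33, so reads of these genes may not have been told apart.

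The genes that protect a stalled or moving fork fell to 69.5% of the control mean, next to the licensing factors. Clspn, which encodes claspin, the mediator of checkpoint signalling from the fork, had 91.1, 89.4 and 88.0 CPM in the control and 60.3, 58.4 and 58.5 CPM with IL-33. The gap between the groups was many times their spread (SD 1.57 and 1.07 CPM), and the log2 fold change was -0.60 ± 0.0447 (adjusted p = 8.4e-22). Timeless and Tipin, which form the complex that travels with the fork beside claspin, had log2 fold changes of -0.55 and -0.36. The Timeless ranges, 42.8 to 45.7 and 29.3 to 32.8 CPM, did not meet, nor did those of Tipin, 42.3 to 46.5 and 33.2 to 35.3 CPM.

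CAF-1 places histones on newly copied DNA. Chaf1a, its large subunit, had 49.4, 44.2 and 49.3 CPM against 36.4, 30.8 and 38.7 CPM (log2 fold change -0.43 ± 0.0655, adjusted p = 1.2e-07), and Chaf1b was close to it at -0.40, with 31.0 to 34.2 against 24.9 to 25.3 CPM. The Chaf1a value is uncertain, because 52.5% of its exon bases lie opposite Ubxn6. Ubxn6 had 56.7 CPM in the control mean, against 47.7 CPM for Chaf1a, and its own log2 fold change was 0.10 (adjusted p = 0.15).

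**Figure D4:**
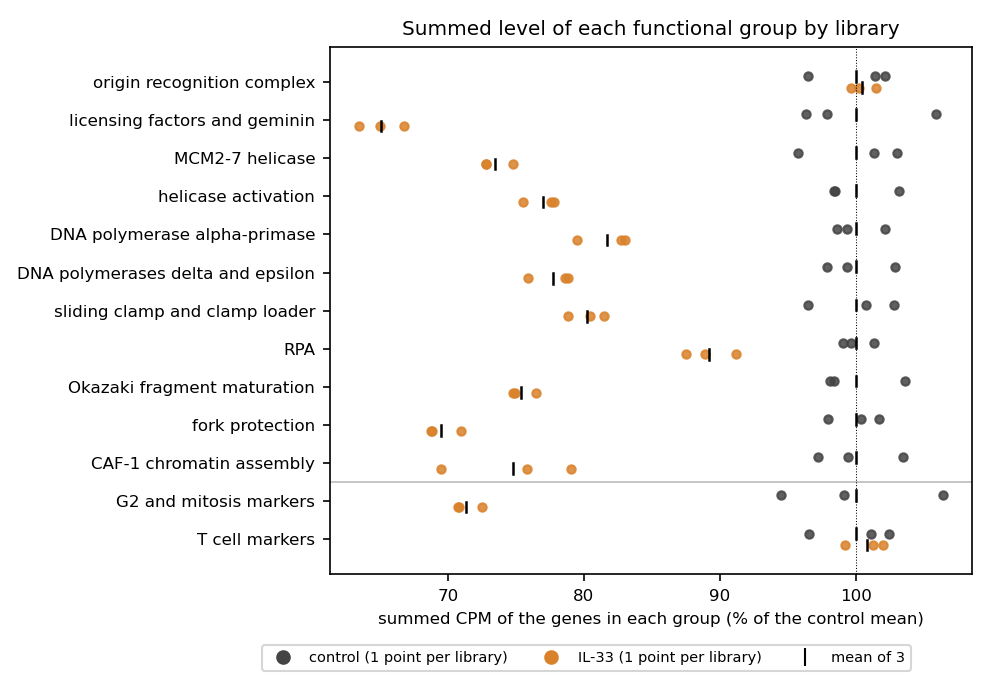
Summed CPM of each group of genes in each library, as a percentage of the control mean of that group (horizontal axis), with the mean of 3 libraries as a bar. Licensing factors (65.1%) and fork protection (69.5%) lie furthest left; ORC (100.4%) and the T cell markers (100.8%) lie at the control level.

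Genes of the same complex or pathway differed in how far they moved. This was followed as a ratio of counts in each library for 6 pairs chosen after their values were seen. Not every pair lies within a complex: Pole and Pold2 belong to different polymerases, and Gmnn encodes the inhibitor of CDT1. The Orc1 to Orc3 ratio was 0.132, 0.138 and 0.124 in the control and 0.103, 0.0839 and 0.0940 in the IL-33 libraries. Cdt1 to Gmnn went from a mean of 1.19 ± 0.104 to 0.968 ± 0.0576, and Mcm2 to Mcm6 from 0.564 ± 0.0198 to 0.446 ± 0.00626 (SD, n = 3 each). Pole to Pold2 and Rfc3 to Rfc1 were also lower in every IL-33 library, whereas Prim1 to Prim2 overlapped between the groups. For the 5 pairs without overlap the exact two-sided permutation test gave p = 0.10, the smallest value that 3 against 3 libraries allow, and 0.12 after Benjamini-Hochberg adjustment over the 6 pairs. This design cannot reach 0.05 by that test. Because the pairs were chosen by their values, the adjustment does not cover that choice, and no conclusion is drawn from these p-values.

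Of a wider list of 33 replication factors beyond the 48 genes, 22 were lower, where 13.9% of all genes tested were, none was higher, where 13.6% were, and 11 did not pass. Of the 33 log2 fold changes, 31 were below 0, with a median of -0.24. At an unadjusted p under 0.05, 24 were lower and 1 higher in edgeR, and DESeq2 called 19 lower and 0 higher after adjustment. Asf1b, a histone chaperone that feeds CAF-1, had 59.6, 52.5 and 55.3 CPM against 37.2, 32.0 and 32.9 CPM (-0.71 ± 0.0613, adjusted p = 5.3e-18). Wdhd1, which ties polymerase alpha to the helicase, had 51.8, 52.4 and 48.0 CPM against 33.9, 32.1 and 33.3 CPM (-0.61 ± 0.0614, adjusted p = 5.3e-15). Both were past both thresholds with no overlap. Tonsl, which reads new histones behind the fork, was level at 125 CPM in both groups.

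CDT1 protein is removed by ubiquitin ligases. Of 9 genes listed for this turnover, 3 were lower (13.9% of all genes tested were), 1 was higher and 5 did not pass. The 1 higher gene is 11.1% of the list, near the 13.6% of all genes that were higher. Dtl, which brings CDT1 on PCNA to the CUL4-DDB1 ligase, fell by 0.56 on the log2 scale. Skp2, the receptor of another ligase that acts on CDT1, had 114, 73 and 71 counts in the control and 54, 64 and 44 counts with IL-33 (-0.70 ± 0.210, adjusted p = 0.0070). Fzr1 was the remaining lower gene, at a log2 fold change of -0.23. Ddb1, the adaptor of the CUL4 ligase, was higher, from 348, 334 and 341 CPM to 374, 365 and 375 CPM (log2 fold change 0.12 ± 0.0297, adjusted p = 0.00064).

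Genes of later cell cycle stages were read beside these. All 16 markers of G2 and mitosis were lower, where 13.9% of all genes were, with a median log2 fold change of -0.45, and their summed level was 1994 to 2244 CPM in the control and 1494 to 1530 CPM in the IL-33 libraries. Ccna2, which encodes the S and G2 cyclin A2, had the largest log2 fold change of them, at -0.61 (adjusted p = 5.1e-23), and Kif11, a spindle motor, the smallest at -0.16 (adjusted p = 0.0046). Mki67, which encodes the proliferation antigen Ki-67, had a log2 fold change of -0.54. By flow cytometry, the paper reports the opposite direction: more proliferation of DNT cells with IL-33, by Ki67 protein in vitro and by Ki67 and BrdU in mice. From the same RNA sequencing, the paper also reports an increase of a leukocyte proliferation gene set in its enrichment analysis. Cell division was among the terms enriched in its changed genes. The difference between the RNA values here and these reports was not tested. The summed level of the G2 and mitosis list was 71.4% of the control mean, between those of fork protection (69.5%) and MCM2-7 (73.5%).

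The start windows were then searched for 3 kinds of short words. RefSeq windows of 300 bases (250 before to 50 after the start) were found for 39 of the 48 genes, 48 windows in all because some genes have several; Prim2, Gins1, Gins2, Gins4, Rfc2, Tipin, Mcm4, Gmnn and Pole were not among them. An E2F word, overlapping matches included, was in 29 of the 48 windows, that is 60.4%, against 16.3% of the windows of all genes tested and 9.57% of all windows. Among genes tested over the whole table, the share was 21.6% of windows of lower genes and 13.2% of windows of higher genes.

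Within the replication genes, an E2F word was found in 24 of 36 windows of genes called lower (66.7%) and in 5 of 12 windows of the others (41.7%). Counted by gene rather than by window, the shares were 67.7% of 31 genes and 62.5% of 8, which lie close together. Orc3, which rose, holds one, as do Rfc1 and the first of the 3 windows of Orc4, while Mcm2 and Mcm10 hold none in the window. CCAAT was in 52.1% of the replication gene windows against 37.4% of all windows, and the CHR words TTTGAA or TTCGAA, which belong to G2 and mitosis genes, in 20.8% against 19.2% of all windows and 14.3% of the windows of genes tested. For CCAAT the share of the windows of genes tested was 37.5%. Within the replication genes, CHR words were in 9 of 36 windows of genes called lower and in 1 of 12 windows of the others. A match is a run of letters and not a measured binding site.

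**Figure D5:**
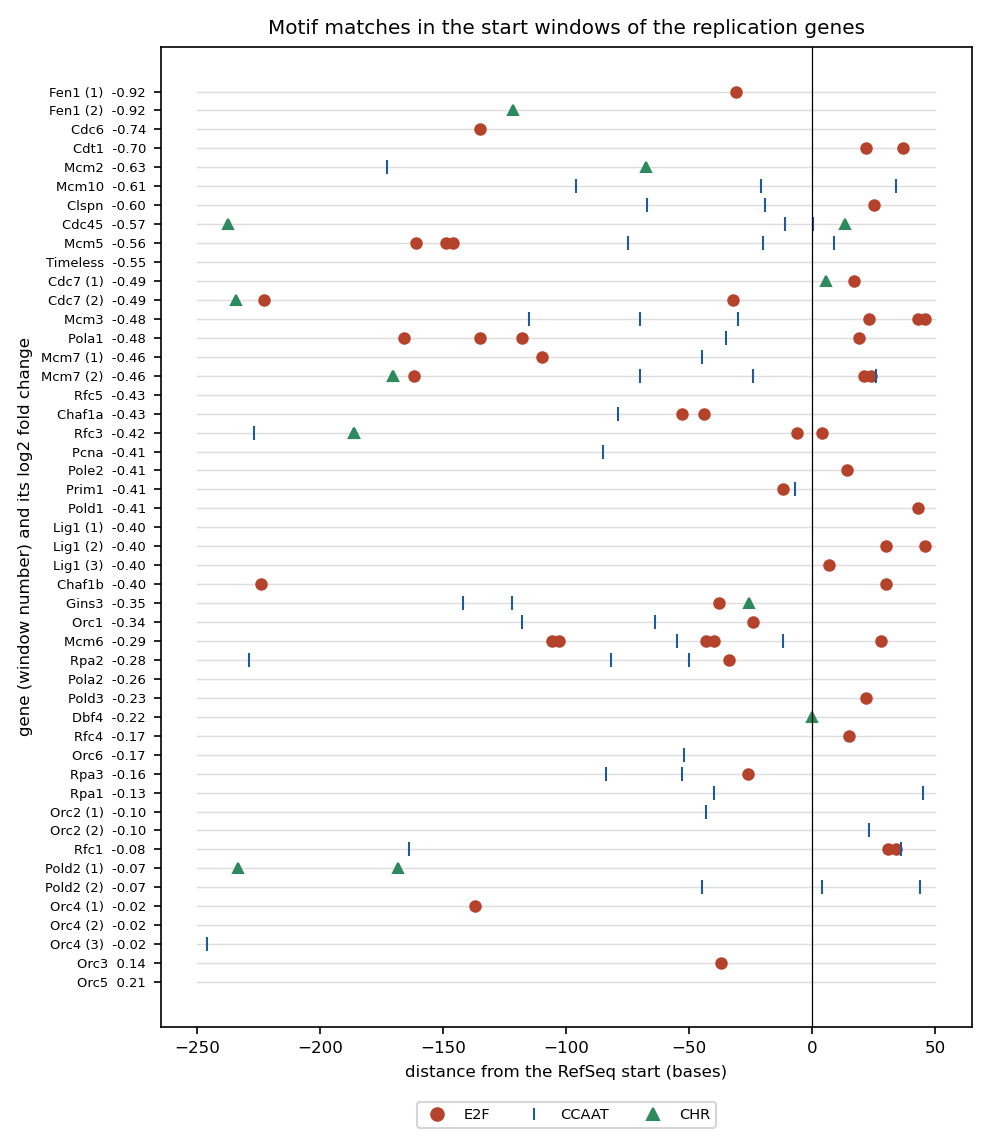
Positions of E2F, CCAAT and CHR words in the 48 start windows (horizontal axis, bases from the RefSeq start), ordered by the log2 fold change printed beside each gene. E2F words appear in 29 windows, from the top of the order down to Orc3.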

How the data were processed

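RNA of 6 libraries of mouse DNT cells was sequenced on an Illumina instrument. The authors deposited 1 table of raw counts per gene and library under Ensembl IDs, and the labels name Bowtie 0.12.2 and the genome build mm8 (submitters' processing notes). Which counting program, annotation and strand setting were used is not given in the sources used here, and the library kit is named differently in the labels (TruSeq) and the methods (NEBNext Ultra). The deposited normalized mean (a signal column) and the authors' fold changes and p-values were not used. Symbols, exon lengths (all annotated exons of a gene merged) and overlaps came from GENCODE M21 (GRCm38) for 26072 IDs, and start windows from RefSeq (GRCm38.p6). Neither is the build named in the labels.

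Counts were tested with edgeR 4.0.16 in R 4.3.3: filterByExpr (minimum count 10, minimum total 15), TMM, robust quasi-likelihood fit and test on group, and Benjamini-Hochberg adjustment over 14671 genes, which held 99.89% of counts. Thresholds were an adjusted p of 0.05 and a 1.5-fold change, after the study's methods. The standard error is the fold change over the square root of F. The common biological coefficient of variation was 0.0468, and 3 counts equal 0.135 to 0.148 CPM. Named were genes past both thresholds, genes that rose, and in each role the largest change past the adjusted p. The genes and lists were chosen with earlier results of these data known. Alternatives were DESeq2 1.42.0, other scaling, no filter, a replicate block and leaving out each library. One more, chosen after seeing the data, left out genes with overlapping exons or pseudogene copies.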

Additional observations from a re-analysis of the deposited data

How the results depend on the processing

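Over 11 alternatives, 497 of 528 single-gene results held both direction and call. Calls were lost in 23 cases, all in Orc1, Orc3, Orc6, Gins3, Rfc2 and Fen1, and gained in 3, in Gins2 and Gins4. The direction turned in 5 cases, all in genes near 0: Prim2 ran from -0.0452 to 0.0405 with 1 library left out, above 0 without control library 1 (0.000199) or 2, or IL-33 library 2 (0.0153) or 3 (0.0337), and Orc4 from -0.0727 to 0.0166, above 0 without control library 2. With each library left out in turn, 32 to 37 of the 48 genes were lower, 0 or 1 was higher (0 without control library 3), and 5 to 9 were past both thresholds and lower (5 without control library 1, when Mcm10, Gins1 and Pole stayed called but missed the fold threshold). The median log2 fold change ran from -0.41 to -0.37. In the wider list, 0 or 1 gene was higher, Lrwd1 without IL-33 library 2. DESeq2 called 33 lower and 1 higher. The 27 genes without overlapping exons or pseudogene copies, an alternative chosen after seeing the data, gave 22 lower and 5 past both thresholds, with a median of -0.40; the counts are smaller because fewer genes were tested. Scaling to library totals alone moved the median of all genes to -0.018 and the lower share of all calls from 50.5% to 57.0%, and left 37 of the 48 lower and 1 higher.

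Libraries with the same number did not visibly deviate together (correlations 0.027, -0.025 and 0.048, against -0.103 to 0.074 for unlike numbers). With 3 libraries per group this cannot show whether the numbers pair them. With the replicate number as a block, 36 of the 48 genes were lower and 1 higher, Orc6 losing its call (adjusted p = 0.068), and 1914 genes of the whole table were lower and 1884 higher. Low counts limit mainly Fen1, with 14 to 48 per library, and 78.8% of its exon bases lie opposite Gm10143.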
